A study of Mus musculus with 5 samples.

Results

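The genes described here are the protein components of the cytosolic ribosome, chosen by symbol alone. A feature was taken if its symbol starts with Rpl or Rps followed by a digit or is Rplp0, Rplp1, Rplp2 or Rpsa, and ribosomal S6 kinases and pseudogenes marked as such were left out. This gave 86 of 32285 features. They comprised 31 proteins of the small subunit, 43 of the large subunit, the 3 stalk proteins, 8 paralogs of these, and Rps19bp1, a protein that binds Rps19 and is no subunit. Of the 86, 83 had enough counts to be tested between cell classes. Rpl10l had no UMI in any class, Rpl3l had 3 UMIs in the 9 classes together, and Rpl39l, a paralog of Rpl39, had 29 UMIs in microglia and 17 in inhibitory neurons, so these 3 paralogs were not tested.

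A cytosolic ribosome holds 1 copy of most of these proteins, on a small subunit that decodes the messenger RNA and a large subunit that joins amino acids. Their transcripts carry a terminal oligopyrimidine (TOP) motif, a run of C and T that starts at the first transcribed base, through which the mTORC1 pathway and the binding protein Larp1 set how much they are translated and how stable they are. In the developing brain, dividing progenitors make many new ribosomes, and neurons later use theirs for growth of axons, dendrites and synapses.

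The samples were 5 single-cell RNA libraries made from the hippocampus of mouse pups on postnatal day 1, 3 from wild-type animals (replicates 1, 2 and 3) and 2 from Trem2 knockout animals (replicates 2 and 3), each pooled from 2 pups. Trem2 is a receptor of microglia, the immune cells of the brain, and the knockout is labelled for the whole animal, with no allele or strain given in the sources used here. The sample descriptions give 2 males for the replicates numbered 2 and 1 female with 1 male for the others, but the sex label names both sexes throughout. No treatment is given, and the tissue was dissociated with papain.

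The libraries held 60024793 to 91205882 unique molecular identifiers (UMIs, each standing for 1 captured RNA molecule) over 40345 barcodes, of which 29435 cells were kept. Any pair of libraries shared 7 to 17 barcodes, at most 0.327% of the smaller library. In microglia the Trem2 level was 1377, 1475 and 885 CPM (UMIs of a gene scaled to 1000000 UMIs of the class and library) in the wild-type and 59.8 and 83.1 CPM in the knockout libraries (log2 fold change -4.15, edgeR adjusted p = 0.00826), as labelled. Across all features, ribosomal protein genes took 11.2 to 12.4% of the UMIs of a library, and 5.6 to 7.18% in its barcodes that failed the filters.

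Cells were placed in 9 classes by counts of marker genes that include no ribosomal protein. These were radial glia, the stem cells of the newborn hippocampus, outside division (648 cells) and in division (297), intermediate progenitors (1123), immature (1508) and maturing (188) excitatory neurons, inhibitory neurons (1630), astrocytes (2478), oligodendrocyte precursors (1409) and microglia (338). The gates took 9619 cells, 32.7% of those kept, so most cells belong to no class. Own markers were detected in a median of 69.2% of radial glia, 60.8% of astrocytes, 72.5% of oligodendrocyte precursors, 70.9% of inhibitory neurons, 92.8% of maturing neurons, 95.7% of microglia, 54.1% of intermediate progenitors and 36.2% of immature neurons. The immature markers were detected in more intermediate progenitors, 71%, than immature neurons, and the radial glia markers in 92% of astrocytes and 74.5% of oligodendrocyte precursors, so these lists do not separate the neighbouring classes by themselves. Astrocyte markers were detected in a median of 9.88% of radial glia, but Aldoc in 71.9%. Median UMIs per cell were 2697 to 4952 in radial glia and 6810 to 8362.5 in astrocytes over libraries. Whether the radial glia class holds astrocytes of low depth was not tested. In the microglia Mrc1, a marker of border macrophages, was detected in 41% of cells, Pf4 in 2.07%, F13a1 in 0.59%, and Lyve1 and Cd163 in 0%. Cells with another of these markers beside Mrc1 were left out of every class, so in Mrc1 cells the absence of the others was set by the gate. Whether the class holds border macrophages was not tested. Division markers were detected in a median of 33.8% of intermediate progenitors, 27.5% of oligodendrocyte precursors and 21.2% of microglia, and the part of division in the levels of those classes was not tested.

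The maturing class needs a caution before its values. Its gate asked for 7 of 12 synaptic and neuronal markers and no UMI of 5 immature markers, and this second condition kept 239 of 7954 cells, 188 after the other conditions. A relaxed gate without that condition, chosen after seeing the data, held 6626 cells. Igfbpl1, an immature marker, was detected in 95% of the relaxed class, and Slc17a7, the vesicular glutamate transporter of mature excitatory neurons, in 82% of the strict and 39% of the relaxed class. Both versions are given for the counts of members, and a value with no gate named is for the strict class. The excitatory gates do not separate neurons by region or kind, and the part of neuron kind in the comparisons was not tested. Rose and fell, here and below, compare classes of cells taken at the same age.

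Beginnings of member transcripts are shown first, because the TOP motif sits there. RefSeq promoter entries on GRCm38.p6 were found for 66 members, with 78 annotated starts. A run of 8 or more C or T, on the strand of the gene and within the 20 bases on either side of the start, was present at 39.7% of member starts and 16% of all 32851 starts. A C at the annotated start itself was present at 29.5% of member and 16.3% of all starts. In the whole window of 250 bases before to 50 bases after the start, on either strand, the ETS-like motif CCGGAAGT was found at 15.4% of member and 3.89% of all starts, the YY1-like motif AAGATGGC at 10.3% and 2.75%, and TATAAA at 8.97% and 13.6%. Overlaps between motifs were not counted apart, and a match is a description of the sequence only.

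The windows below run from 30 bases before the annotated start to 20 bases after it, 5′ to 3′ on the strand of the gene, and capitals mark the longest run of C or T within 20 bases of the start. The first 5 belong to members whose level was low in maturing neurons or that led another comparison: Rps9 (chr7:3704011-3704060, plus strand), Rpl13a (chr7:45128726-45128775, minus strand), Rpl4 (chr9:64173357-64173406, plus strand), Rpl13 (chr8:123102320-123102369, plus strand) and Rps12 (chr10:23787190-23787239, minus strand).
Rps9: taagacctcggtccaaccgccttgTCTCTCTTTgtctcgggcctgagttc
Rpl13a: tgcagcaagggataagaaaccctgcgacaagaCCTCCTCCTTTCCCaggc
Rpl4: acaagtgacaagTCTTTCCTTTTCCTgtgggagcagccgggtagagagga
Rpl13: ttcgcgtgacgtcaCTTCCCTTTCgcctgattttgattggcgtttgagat
Rps12: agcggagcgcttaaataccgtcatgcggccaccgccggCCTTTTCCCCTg
The next pair sets Rps27 (chr3:90213629-90213678, minus strand) beside its paralog Rps27l (chr9:66946056-66946105, plus strand, the first of its 2 starts).
Rps27: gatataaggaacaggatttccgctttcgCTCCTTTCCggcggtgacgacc
Rps27l: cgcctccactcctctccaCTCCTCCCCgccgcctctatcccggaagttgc
The last 5 belong to members whose pattern over classes departed most from the rest or that did not fall in maturing neurons: Rpl22l1 (chr3:28805478-28805527, plus strand), Rpl36al (chr12:69184048-69184097, minus strand), Rpl41 (chr10:128549149-128549198, minus strand), Rps2 (chr17:24720033-24720082, plus strand) and Rps19bp1 (chr15:80264287-80264336, minus strand).
Rpl22l1: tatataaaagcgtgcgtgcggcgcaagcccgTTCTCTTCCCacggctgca
Rpl36al: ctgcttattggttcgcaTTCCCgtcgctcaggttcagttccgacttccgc
Rpl41: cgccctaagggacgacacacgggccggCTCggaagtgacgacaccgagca
Rps2: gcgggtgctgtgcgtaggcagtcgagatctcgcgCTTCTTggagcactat
Rps19bp1: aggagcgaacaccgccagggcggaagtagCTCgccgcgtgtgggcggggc
The marked run is 14 bases in Rpl13a and Rpl4, 9 in Rps9, Rps27 and Rps27l, and 10 in Rpl22l1. It is 5 bases in Rpl36al, 6 in Rps2 and 3 in Rpl41 and Rps19bp1. Rpl38, whose pattern also departed from the rest, is not shown and has a run of 10. Runs of 3 also occur in Rpl23 and Rps3, which were lowest in strictly gated maturing neurons. The windows were picked with the values known, so they illustrate the members and test nothing.

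The share of a class's UMIs that came from the 86 genes differed by class, from 7.82% in maturing excitatory neurons to 19.1% in microglia. It is a summed level and was not tested. In maturing neurons the share was 8.21, 7.9 and 7.6% in the wild-type and 7.32 and 8.08% in the knockout libraries, below every library of every other class. With the relaxed gate it was 10.5, 10.0 and 10.5% and 9.97 and 10.8%. In immature excitatory neurons it was 13.6, 13.9 and 13% in the wild-type and 12.4 and 13.3% in the knockout libraries. The immature values stood above both versions of the maturing class in all 5 libraries, with no overlap.

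Among progenitors the share was higher in intermediate progenitors, the transit-amplifying cells that give rise to excitatory neurons, than in radial glia. The values were, for radial glia, 13.2% ± 0.54 (SD, n = 5), for dividing radial glia 12.4% ± 0.637 (SD, n = 5) and for intermediate progenitors 14.9% ± 0.189 (SD, n = 5). In intermediate progenitors the libraries gave 15, 14.9, 14.9, 14.7 and 15.2%, and none overlapped with radial glia or with immature neurons. Radial glia, dividing radial glia and immature neurons overlapped with each other. Of the other classes, inhibitory neurons held 9.72% ± 0.232 (SD, n = 5) and astrocytes 10.6% ± 0.638 (SD, n = 5), and these overlapped with each other and with the relaxed maturing class. Oligodendrocyte precursors, which divide and produce myelinating cells, held 15.3% ± 0.639 (SD, n = 5) and overlapped with intermediate progenitors. Microglia held 19.1% ± 1.51 (SD, n = 5), with 18.9, 19.5 and 16.6% in the wild-type and 20.1 and 20.4% in the knockout libraries.

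**Figure D1:**
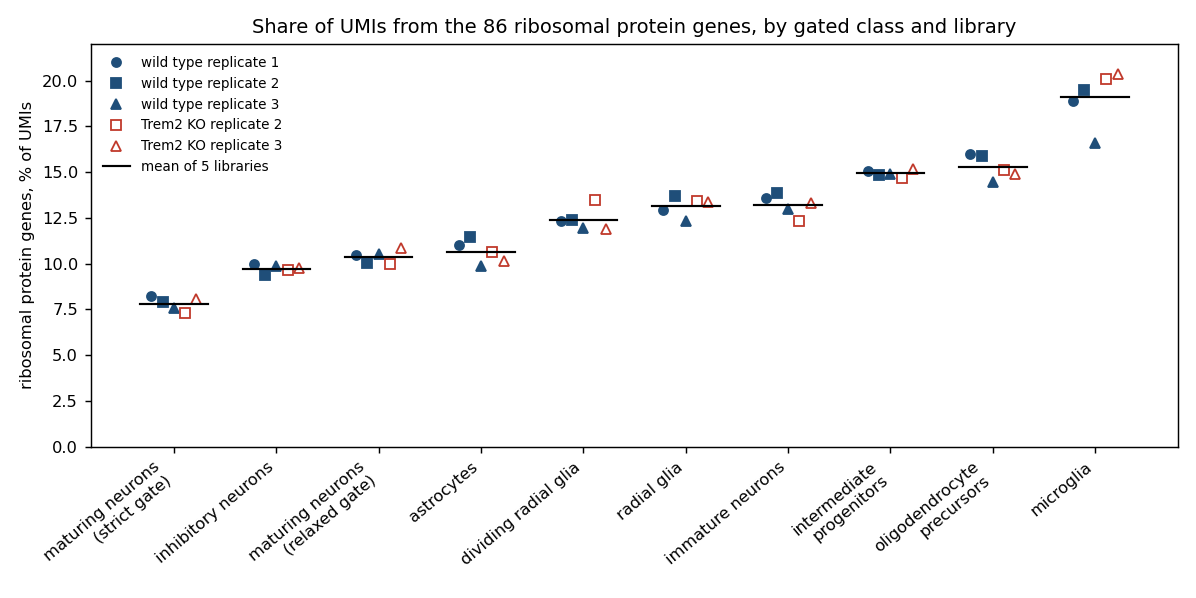
Share of UMIs from the 86 ribosomal protein genes (percent, vertical axis) in each cell class, with 1 point per library, wild type and knockout marked apart, and a bar for the mean. The strict maturing class sits between 7.32 and 8.21% and microglia between 16.6 and 20.4%, and both stand apart from the other classes.

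A lower share is not a lower number of molecules. Maturing neurons had 1525 ribosomal protein UMIs per cell and 18068 UMIs of other genes, whereas immature neurons had 807 and 5294. Intermediate progenitors had 1371 and 7811, radial glia 592 and 3902, and microglia 1525 and 6418. The maturing gate, which needs 7 detected markers, took cells with many UMIs, so the levels below are all relative to the other RNA of the class. The ratio of small to large subunit UMIs, which compares the subunits, lay between 0.834 and 0.911 in the class means.

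**Figure D2:**
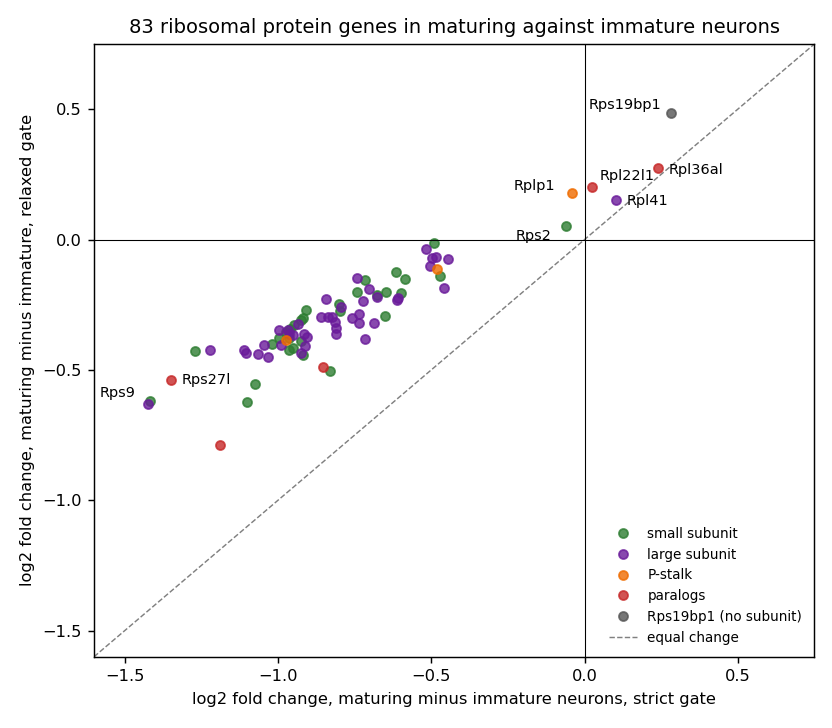
Log2 fold change of each of the 83 tested members in maturing against immature excitatory neurons, with the strict gate on the horizontal and the relaxed gate on the vertical axis, coloured by role. Most members lie below 0 on both axes, with a median of -0.83 for the strict and -0.32 for the relaxed gate.

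Maturing excitatory neurons had lower levels of nearly all ribosomal proteins than immature ones, relative to other transcripts. With edgeR's quasi-likelihood test and adjustment over all 12913 genes, 77 of the 83 tested members fell and 2 rose. Of all genes 26.6% were lower and 26.6% higher in this comparison. The median log2 fold change of the members was -0.83, against -0.06 over all genes. By role, 42 of 43 large subunit proteins, 30 of 31 small subunit proteins, 2 of 3 stalk proteins and 3 of 5 paralogs were lower. With the relaxed gate 65 members fell and 5 rose, where 20.6% of genes were lower and 29.2% higher, with a members' median of -0.32. With the relaxed gate and cells of 4000 to 12000 UMIs, which narrows the range of depth, 49 fell and 0 rose, where 9.1% of genes were lower, and the median was -0.15.

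Among small subunit proteins, Rps9, which lies at the entry of the messenger RNA channel, had a level in immature neurons of 2339, 2287, 2329.7, 2208 and 2365 CPM in wild-type replicates 1, 2 and 3 and knockout replicates 2 and 3. In maturing neurons the level was 970.3, 879.5, 933, 799 and 863 CPM in the same order. All maturing libraries lay below all immature ones, and the log2 fold change was -1.42 (SE 0.07, edgeR adjusted p = 1.74e-23), or -0.62 (SE 0.07, edgeR adjusted p = 2.64e-11) with the relaxed gate. Rps6, the target of the S6 kinases, fell by 0.96 on the log2 scale, and here too the maturing libraries lay below all immature ones. Rps27a, which is made as a fusion with ubiquitin, fell by 0.96, whereas Rpsa, also known as a laminin receptor, fell by 0.47. Rps2 was the small subunit protein that did not pass, with 1614, 2242, 1539, 1686 and 1621 CPM in immature and 1738, 1876, 1599, 1816 and 1530.5 CPM in maturing neurons and a log2 fold change of -0.06 (SE 0.08, edgeR adjusted p = 0.522).

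In the large subunit, Rpl7 had 1766, 1936, 1687, 1841 and 1749.7 CPM in immature and 783, 805, 747, 815 and 800.3 CPM in maturing neurons, without overlap, a log2 fold change of -1.22 (SE 0.07, edgeR adjusted p = 1.9e-22). The relaxed gate gave -0.42 (SE 0.06, edgeR adjusted p = 2.75e-08). Rpl13a, which can leave the ribosome to repress translation of inflammatory transcripts, fell by 1.11 on the log2 scale. Rpl5 and Rpl11, which with the 5S ribosomal RNA bind Mdm2 when ribosome assembly is disturbed, fell by 1.00 and 1.04. Rpl38, known for its role in translating Hox transcripts, fell by 0.45. Rpl41, among the smallest members, had 1878, 1744, 1699, 1333 and 1754 CPM in immature and 2155, 1684, 1999.6, 1489.8 and 1969 CPM in maturing neurons, groups that overlap, with a log2 fold change of 0.10 (SE 0.07, edgeR adjusted p = 0.198). The relaxed gate put Rpl41 higher, at 0.15 (SE 0.06, edgeR adjusted p = 0.0365).

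The stalk recruits elongation factors to the large subunit, and its base Rplp0 carries dimers of Rplp1 and Rplp2. The 3 proteins did not move alike. Rplp0 had 2482, 3142, 2372, 2671 and 2519 CPM in immature and 1261, 1535, 1234, 1412 and 1439 CPM in maturing neurons, a fold change of -0.98 (SE 0.08, edgeR adjusted p = 6.3e-16) on the log2 scale. Rplp2 fell by 0.48, with 32.2% of its transcript end shared with Wdr89. Rplp1 had 1654, 1753, 1474, 1384 and 1646 CPM and 1984, 1649, 1300.1, 1365 and 1678 CPM, and its log2 fold change of -0.04 (SE 0.07, edgeR adjusted p = 0.662) did not pass, while with the relaxed gate the sign turned and it was higher by 0.18 (SE 0.07, edgeR adjusted p = 0.0329). The ratio of Rplp1 to Rplp0 UMIs was 0.604 ± 0.0635 (SD, n = 5) in immature, 1.17 ± 0.238 (SD, n = 5) in maturing neurons and 0.892 ± 0.0992 (SD, n = 5) with the relaxed gate.

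The 2 members that rose with the strict gate had overlapping libraries. Rpl36al, the autosomal copy of the X-linked Rpl36a, had 352, 352, 365, 352 and 364 CPM in immature and 451, 484, 437, 335 and 462 CPM in maturing neurons, a log2 fold change of 0.24 (SE 0.08, edgeR adjusted p = 0.00779). Rps19bp1 had 79.8, 71.2, 86.2, 68.2 and 59.3 CPM and 88, 92.3, 116, 58.4 and 98.1 CPM, a log2 fold change of 0.28 (SE 0.12, edgeR adjusted p = 0.0431). Every member named here as lower with the strict gate was closer to 0 with the relaxed gate, between -0.62 for Rps9 and -0.08 for Rpl38. Rpl38 was then at an adjusted p of 0.346 with edgeR, Rplp2, at -0.11, at 0.121 and Rpsa, at -0.14, at 0.0947, so these 3 no longer passed. With the relaxed gate the members that rose were Rpl22l1, Rplp1, Rpl41, Rpl36al and Rps19bp1.

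The relation with maturing markers was also read without classes, over 12649 excitatory neurons of any region or kind. These were binned by UMIs and by the number of 12 maturing markers detected after each cell was thinned to 3000 UMIs. Among cells of 6001 to 9000 UMIs the ribosomal protein share was 13.6% ± 0.405 (SD, n = 5) with 0 to 2 markers, 13% ± 0.486 with 3 to 4 and 12.4% ± 0.52 with 5 to 6. Among cells of 9001 to 14000 UMIs it was 13.9% ± 0.821, 12.4% ± 0.57, 11.7% ± 0.547 and, with 7 to 12 markers, 10.7% ± 0.744. Above 20000 UMIs it was 9.83% ± 0.419 with 3 to 4 markers and 8.64% ± 0.221 with 7 to 12. In all 5 depth bins the mean was lower with more markers. From 6001 UMIs upward the means with 3 to 4 and with 5 to 6 markers were also lower in each deeper bin. The relation with depth went the other way elsewhere. With 0 to 2 markers the mean was 13.1% at 3000 to 6000 UMIs and higher in the deeper bins, at 13.6 and 13.9%. At 3000 to 6000 UMIs it was 12.2% with 3 to 4 and 10.2% with 5 to 6 markers, below the bin of 6001 to 9000 UMIs. Cells of 1 library are not replicates of it, and these means are a description with no test.

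**Figure D3:**
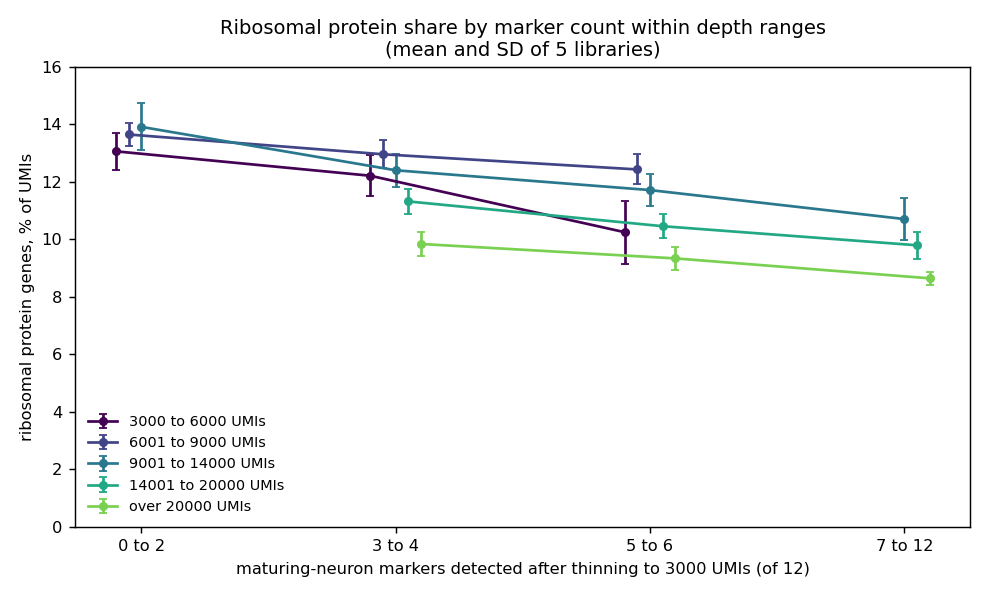
Ribosomal protein share of UMIs (percent, vertical axis) against the number of maturing markers detected after thinning, with 1 line per range of UMIs per cell, points as the mean of 5 libraries and bars as the SD. Within each range the mean decreases from left to right, for example from 13.9 to 10.7% between 9001 and 14000 UMIs.

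The steps before maturation went in both directions. From radial glia to intermediate progenitors 58 of the 83 members rose and 0 fell, where 22.6% of all genes were higher, with a members' median of 0.21 on the log2 scale. The members that rose included 31 large and 25 small subunit proteins and no paralog. Rpl4 had 677, 769, 589, 731 and 659 CPM in radial glia and 937, 1002, 888, 1009 and 940.2 CPM in intermediate progenitors, without overlap, and a log2 fold change of 0.52 (SE 0.07, edgeR adjusted p = 1.77e-08). Rps3, which also acts in DNA repair, had 0.48 (SE 0.08, edgeR adjusted p = 5.17e-07) and Rps6 0.42 (SE 0.08, edgeR adjusted p = 8.14e-06). Rpl22l1 was not among them, with 682, 638, 540.0, 616 and 586 CPM and 604, 542, 497, 519 and 564 CPM and a log2 fold change of -0.13 (SE 0.08, edgeR adjusted p = 0.168). With DESeq2's kind of size factors in edgeR the count of members that rose was 33, where 2469 of 12913 genes were higher, and the members' median was 0.13.

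From intermediate progenitors to immature neurons 45 members fell and 2 rose, where 27.6% of genes were lower and 24.3% higher, with a members' median of -0.18. Rps27l, a p53-inducible paralog of Rps27, had 375, 381, 348, 321 and 391 CPM in intermediate progenitors and 216, 229, 192, 207 and 197 CPM in immature neurons, a log2 fold change of -0.80 (SE 0.09, edgeR adjusted p = 1.34e-11). Rpl22l1 fell by 0.75, Rpl41 by 0.58, Rpl8 by 0.52 and Rplp1 by 0.47 on the log2 scale. Rps7 and Rpl38 rose, by 0.25 (edgeR adjusted p = 0.00235) and 0.20 (edgeR adjusted p = 0.0159). The count was smaller whichever library was left out, between 26 without wild-type replicate 1 and 36 without wild-type replicate 2, with 27 without either knockout library. In these fits 2972 to 3217 genes were lower, against 3562 over all libraries, while the members' median lay between -0.16 and -0.11. With a mitochondrial limit of 5%, 7 fell and 5 rose, where 2609 of 11051 genes were lower and 2297 higher, and the median was -0.006.

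Dividing radial glia had 19 members lower and 1 higher than radial glia outside division, where 13.4% of genes were lower and 15.4% higher, with a members' median of -0.12. The higher one was Rps27l, at 375, 385, 332, 367 and 327 CPM outside division and 592, 605, 477, 438 and 663 CPM in division, groups that did not overlap. Its log2 fold change was 0.60 (SE 0.10, edgeR adjusted p = 2.16e-06). Rpl10, which joins the large subunit late in its assembly and shares 80.6% of its transcript end with Rpl10-ps3, fell by 0.52, and Rps28 by 0.29. In cells of 4000 to 12000 UMIs, 11 members were higher and 1 lower, where 8.8% of genes were higher and 7.56% lower, with a median of 0.05. Rps27l was then higher by 0.45 (edgeR adjusted p = 9.73e-05). In the fit with this depth limit and the relaxed maturing gate, 5 members were higher and 4 lower, with a median of -0.015. There 944 of 12490 genes were higher and 1201 lower, so the direction of the group was not settled under the depth limit. The count of lower members was 3 without knockout replicate 3, where 1381 of 13494 genes were lower, with a members' median of -0.09. Without wild-type replicate 3 it was 29, where 1519 of 12945 genes were lower, with a members' median of -0.16.

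Astrocytes, which arise from radial glia, had lower levels than these of 75 members and higher levels of 0, where 7.84% of genes were lower and 8.02% higher. The members' median was -0.27, and all 3 stalk proteins, 41 large and 29 small subunit proteins fell. Rps26 had 1286, 1312, 1375, 1236 and 1278 CPM in radial glia and 1041, 921, 1037, 809.6 and 877 CPM in astrocytes, a log2 fold change of -0.44 (SE 0.07, edgeR adjusted p = 8.13e-06). Rps27l fell by 0.42, Rpl10a by 0.37 and Rpsa by 0.35. Rpl22l1 had -0.03 (SE 0.08, edgeR adjusted p = 0.866) and did not pass. The count was 24 without knockout replicate 2, 34 without knockout replicate 3, 27 without wild-type replicate 1 and 44 without wild-type replicate 2, with medians of -0.24 to -0.21 and 525 to 802 genes lower in these 4 fits against 1012 over all libraries. With a mitochondrial limit of 5% the count was 1, where 302 of 11051 genes were lower, and the median was -0.18, with 80 of 83 members below 0. In cells of 4000 to 12000 UMIs 73 members were lower and 0 higher, where 893 of 12237 genes were lower, with a median of -0.26.

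Glia were then set against maturing neurons. In oligodendrocyte precursors 80 members were higher and 1 lower, where 36.5% of genes were higher and 28.4% lower, and with the relaxed gate 77 were higher and 2 lower, where 36.7% of genes were higher and 37.5% lower. Rpl13 had 6033, 6083, 6291, 5942 and 5972 CPM in oligodendrocyte precursors and 1902, 2047, 1892, 1947 and 2057 CPM in maturing neurons, a log2 fold change of 1.63 (SE 0.07, edgeR adjusted p = 4.73e-27), or 1.14 (SE 0.07, edgeR adjusted p = 6.05e-21) with the relaxed gate. Its level in oligodendrocyte precursors was the highest mean of the 9 classes. In microglia 82 members were higher and 1 lower with either gate. Of all genes 32.6% were higher and 32.4% lower against the strict class, and 32% and 36.4% against the relaxed class. Rps29 had 4814, 3572, 3419, 3319.9 and 4069 CPM in microglia and 1232, 869, 971, 688 and 1024 CPM in maturing neurons, a log2 fold change of 2.34 (SE 0.07, edgeR adjusted p = 5.9e-33), or 1.92 (SE 0.07, edgeR adjusted p = 1.14e-30) with the relaxed gate. The lower one was Rps19bp1, at -0.40 (SE 0.16, edgeR adjusted p = 0.0239), and with the relaxed gate it was at -0.57 (SE 0.12, edgeR adjusted p = 5.97e-05). The members' median was 1.60 with TMM scaling and 1.28 with scaling to total UMIs, and 82 were higher and 1 lower under both. That scaling moved the median of all genes from 0.0043 to -0.33, and their calls from 4206 higher and 4184 lower to 3309 and 5383.

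Astrocytes and inhibitory neurons depended on how maturing neurons were gated. Against the strict class 72 members were higher and 3 lower in astrocytes, where 37.5% of genes were higher and 30.8% lower, and against the relaxed class 10 were higher and 23 lower, where 38.5% and 41.1% of genes were. Inhibitory neurons had 67 members higher and 2 lower than the strict class, where 20.6% of genes were higher and 17.8% lower, but 1 higher and 43 lower than the relaxed class, where 20.6% of genes were higher and 25.7% lower. With the relaxed gate and cells of 4000 to 12000 UMIs, 5 members were higher and 64 lower in astrocytes, where 38.8% and 39.8% of genes were, and 3 were higher and 67 lower in inhibitory neurons, where 21.7% and 23.3% were. Rpl7a was at 0.66 in inhibitory against strict maturing neurons and at -0.0066 (edgeR adjusted p = 0.944) against the relaxed class on the log2 scale. Rps27l was higher in astrocytes by 1.67 (SE 0.11, edgeR adjusted p = 5.3e-19) against the strict and by 0.83 (SE 0.08, edgeR adjusted p = 1.99e-14) against the relaxed class.

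Of the 83 members, 72 had their highest mean level in microglia and 74 their lowest in strictly gated maturing neurons. With the relaxed class in its place 72 were highest in microglia, while 14 were lowest in maturing neurons, 44 in inhibitory neurons and 19 in astrocytes, so the lowest class depended on the gate. Rpl13, Rpl23a and Rps15 were highest in oligodendrocyte precursors, Rpl31, Rpl36a, Rpl4 and Rpl41 in intermediate progenitors, Rps27l and Rpl7l1 in dividing radial glia, Rpl22l1 in radial glia and Rps19bp1 in inhibitory neurons. Levels of Rpl36a, Rpl35, Rps27rt and Rpl10 are uncertain, since 91%, 95.3%, 86.3% and 80.6% of the 90-base stretches at their transcript ends also occur in Rpl36a-ps1, Gm2000, Rps27 and Rpl10-ps3. The log2 CPM of a member was correlated over the 45 sums of class and library with the summed level of the other members. The median Pearson r of 82 members was 0.93, and 57 were above 0.9. The lowest 5 were Rps19bp1 (-0.57), Rpl22l1 (0.32), Rpl36al (0.48), Rpl38 (0.49) and Rpl41 (0.56). The sums share libraries and depth, so these values describe likeness and carry no p.

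Paralogs were read as a ratio to their partner, which is free of scaling. Rpl22l1 can take the place of Rpl22, an RNA-binding large subunit protein that represses it. The ratio of Rpl22l1 to Rpl22 UMIs was 0.489, 0.452 and 0.442 in the wild-type and 0.495 and 0.463 in the knockout libraries for immature neurons. For maturing neurons it was 1.22, 0.723 and 0.916 in the wild-type and 0.78 and 1.01 in the knockout libraries, above every immature library, and the relaxed class had 0.69 ± 0.0329 (SD, n = 5). It was 1.07 ± 0.0973 (SD, n = 5) in inhibitory neurons, 1.02 ± 0.0234 (SD, n = 5) in astrocytes, 0.82 ± 0.0554 (SD, n = 5) in radial glia and 0.38 ± 0.0486 (SD, n = 5) in microglia. Immature neurons and microglia had the lowest mean ratios of the 9 classes. From immature to maturing neurons Rpl22 fell by 0.96 and Rpl22l1 was at 0.03 (SE 0.09, edgeR adjusted p = 0.838) on the log2 scale.

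Rps27l and Rps27 followed another order. Their ratio was 0.874, 0.917 and 0.657 in the wild-type and 0.711 and 0.928 in the knockout libraries for dividing radial glia. The means were 0.444 ± 0.06 (SD, n = 5) in radial glia outside division, 0.43 ± 0.0132 (SD, n = 5) in intermediate progenitors, 0.247 ± 0.0336 (SD, n = 5) in immature and 0.198 ± 0.0135 (SD, n = 5) in maturing neurons, or 0.249 ± 0.0297 (SD, n = 5) with the relaxed gate. Rps27 fell by 1.07 and Rps27l by 1.35 from immature to maturing neurons, and 51.7% of the stretches at the end of Rps27 also occur in Rps27rt. For Rpl36al and Rpl36a the ratio was 0.522 ± 0.0407 (SD, n = 5) in intermediate progenitors, 0.52 ± 0.061 (SD, n = 5) in immature and 0.98 ± 0.158 (SD, n = 5) in maturing neurons, or 0.73 ± 0.0531 (SD, n = 5) with the relaxed gate. Rpl7l1 stayed a minor partner of Rpl7, with ratios of 0.041 to 0.068 in the class means.

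**Figure D4:**
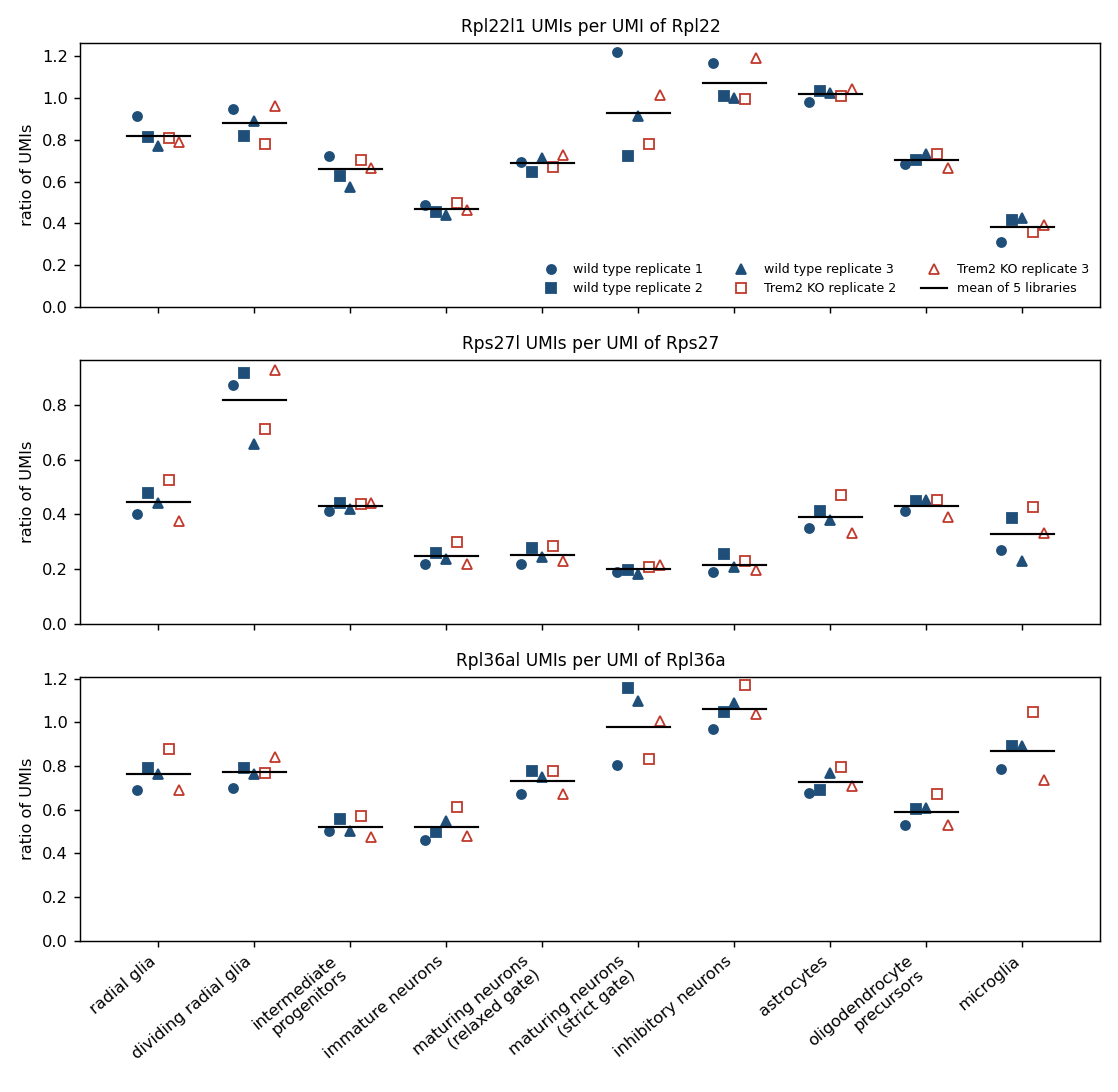
Ratio of the UMIs of a paralog to those of its partner (vertical axis) by cell class, with 1 point per library and a bar for the mean, for Rpl22l1 and Rpl22, Rps27l and Rps27, and Rpl36al and Rpl36a. Dividing radial glia stand highest for Rps27l, between 0.657 and 0.928, and immature neurons are between 0.442 and 0.495 for Rpl22l1.

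Genes around the ribosome were read from lists of the pathway. Their counts from immature to maturing neurons stand beside 26.6% of all genes lower and 26.6% higher with the strict gate, and 20.6% lower and 29.2% higher with the relaxed gate. Of 19 other TOP or translation factors, 15 fell and 1 rose from immature to maturing neurons, with Hnrnpa1, an RNA-binding protein, at -1.37 and Eef2, the translocation factor, at -1.22 on the log2 scale, and with the relaxed gate 11 fell and 4 rose. This list includes Rack1 and Fau, which encode small subunit proteins outside the rule for members, so here and below it is not free of ribosomal proteins. Of 30 ribosome biogenesis factors, which process ribosomal RNA in the nucleolus, 6 rose and 8 fell, while 14 rose and 1 fell with the relaxed gate. The median of that list was 0.05 with the strict gate, against -0.83 for the members. Of 30 initiation factors 5 rose and 8 fell, a share lower that is near that of all genes, with a median of -0.07, but 13 rose and 4 fell with the relaxed gate, where the median was 0.11. Of 17 genes of RNA polymerase I 1 rose and 7 fell with a median of -0.14, and with the relaxed gate 2 rose and 4 fell with a median of 0.11. Of 19 tested regulators 3 rose and 8 fell with a median of -0.28. Rheb, with the smallest p of this list, was higher, at 0.88, and Mycn, a driver of progenitor growth, was at -2.08. With the relaxed gate 6 of 20 regulators rose and 4 fell with a median of 0.05, so the medians of these 3 lists turned with the gate. Rheb was then at 0.63 and Mycn at -0.73.

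The same lists were counted earlier in the lineage. From radial glia to intermediate progenitors, where 22.6% of all genes were higher and 27% lower, 16 of 19 other TOP genes rose and 1 fell, and 15 of 30 biogenesis factors rose and 0 fell, with Nop56 at 0.86 and Nop58, its partner in small nucleolar RNA complexes, at 0.84. From there to immature neurons, where 27.6% of all genes were lower and 24.3% higher, 18 of the 30 biogenesis factors fell and 1 rose, with Dkc1, the pseudouridine synthase, at -1.15, and 17 of 30 initiation factors fell and 2 rose, with Eif4a2, an RNA helicase, at 1.43. In dividing radial glia, where 15.4% of all genes were higher and 13.4% lower, 10 biogenesis factors were higher and 0 lower, among them Nop58 at 1.12. In astrocytes against radial glia, where 7.84% of all genes were lower and 8.02% higher, 11 biogenesis factors, 10 other TOP genes and 6 initiation factors were lower and 0 of each were higher. These lists were drawn up with earlier results of the data known, and the members' share of calls was not tested against them.

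For genotype, no member passed the threshold in any of the 9 classes with edgeR's quasi-likelihood test over 3 wild-type and 2 knockout libraries, or under any alternative tried, DESeq2 included. Over all genes 0.0275% were lower in microglia and 0.0257% higher in oligodendrocyte precursors. The genes were Trem2 and Cxcl10 in microglia and Reln, Ndnf and Tesc in oligodendrocyte precursors, and the other 7 classes had 0 genes past the threshold. Unadjusted p was under 0.05 for 186 genes in microglia and 301 in immature neurons, and for 0 members in each of the 9 classes with edgeR. Reln and Ndnf mark Cajal-Retzius cells, and Reln had 7.91, 3.93 and 17.2 CPM in the wild-type and 96.1 and 58.7 CPM in the knockout precursors, and the part of such cells in the members' levels was not tested.

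In microglia the median log2 fold change over 83 members was 0.17, the furthest from 0 of the 9 classes with the limits on cells given above, with 76 above 0 and 7 below, and in 25 members every knockout library lay above every wild-type library, with 1 the other way. Of all genes 7.53% were higher and 11.5% lower without overlap. Rps4x, a small subunit protein encoded on the X chromosome, had 2571, 2762, 2561, 3252 and 3101 CPM in wild-type replicates 1, 2 and 3 and knockout replicates 2 and 3. Its log2 fold change was 0.31 (SE 0.21, edgeR adjusted p = 1). Rpl8 and Rpl36 were also among the members with the smallest p. Leaving out wild-type replicate 3 gave a members' median of 0.08, and leaving out wild-type replicate 2 gave 0.27. The share in wild-type replicate 3 was 16.6%, in 50 cells with a median of 3111.5 UMIs, and knockout replicate 3, with 2676 UMIs, had 20.4%.

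In immature neurons the median was -0.07, with 10 members above and 73 below 0, and 2 higher and 12 lower without overlap, where 8.53% and 8.62% of genes were. Rpl39 had 1211, 1212, 1022, 880.4 and 1058 CPM in the same library order and a log2 fold change of -0.25 (SE 0.13, edgeR adjusted p = 1). In astrocytes the median was -0.08, with 15 above and 68 below 0 and 9 lower without overlap, where 7.06% of genes were, and Rps26 was at -0.26 (SE 0.13, edgeR adjusted p = 1). In oligodendrocyte precursors 8 members were lower without overlap, where 8.38% of genes were, with a median of -0.04. The medians were 0.04 in radial glia, 0.10 in dividing radial glia, -0.005 in intermediate progenitors, 0.004 in inhibitory and -0.04 in maturing neurons. Rps19bp1 in radial glia had 64, 105, 92.5, 57.3 and 60.4 CPM and a log2 fold change of -0.55 (SE 0.26, edgeR adjusted p = 1). The difference of the genotype effect between maturing and immature neurons was tested in 1 fit, where 20 genes (0.195%) and 0 members passed, with a members' median of 0.05.

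These genotype medians moved with single libraries and with the limit on mitochondrial UMIs, by as much as their own size. In oligodendrocyte precursors the median was lowest when wild-type replicate 3 was left out, at -0.11, and highest when wild-type replicate 2 was, at -0.002. With a mitochondrial limit of 5%, which left 720 of these cells, it was -0.33, with 81 of 83 members below 0. By edgeR, 48 were at an unadjusted p under 0.05 and 0 past the adjusted threshold. The share of all genes at that unadjusted p is not given here, so the 48 are not read as particular to the members. In immature neurons the lowest value came from dropping wild-type replicate 3 (-0.12) and the highest from dropping knockout replicate 2 (-0.02), while dropping wild-type replicate 2 gave -0.03. The limit of 5% gave -0.28 in 787 cells. There 15 of 83 members were at an unadjusted edgeR p under 0.05, as were 297 of 7743 genes. In astrocytes dropping wild-type replicate 3 gave -0.15, whereas dropping wild-type replicate 1 or 2 gave -0.04 or -0.02, and dropping knockout replicate 3 gave -0.01.

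The sign of the median turned in other classes. In radial glia it was -0.03 without wild-type replicate 3 and -0.14 with the limit of 5%. In dividing radial glia it was -0.04 when knockout replicate 2 was dropped and 0.25 when its counterpart, knockout replicate 3, was dropped. Either fit holds a single knockout library, so only its median is given. In maturing neurons dropping knockout replicate 2 gave 0.04 and dropping wild-type replicate 1 gave 0.02, while dropping knockout replicate 3 gave -0.14, and the relaxed gate gave 0.02. It turned in intermediate progenitors and in inhibitory neurons too, where it lay between -0.015 and 0.005 and between -0.02 and 0.02 with a library left out. In microglia it was above 0 in all these cases.

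Libraries differed in the members in a way that crossed genotype and went with coding length. The deviation of a member from its mean over the 5 libraries, averaged over 9 classes, was set against the length of its coding sequence in 83 members with a median of 453 bases. Spearman's rho was -0.79 in wild-type replicate 1, 0.46 in wild-type replicate 2, -0.47 in wild-type replicate 3, 0.80 in knockout replicate 2 and -0.54 in knockout replicate 3. The points share libraries, and no p is given. Rps29, a short small subunit protein, deviated by 0.32 in wild-type replicate 1 and by -0.31 in knockout replicate 2 on the log2 scale. Knockout replicate 2 was the lowest library in all 9 classes for 6 members, Rps21, Rplp2, Rpl41, Rpl23a, Rps29 and Rpl37, 7.23% of members against 0.0929% of all genes. Wild-type replicate 3 was the lowest for 7, among them Rps6, Rpl5, Rpl13a and Rpl4, 8.43% against 0.139%. The shares of all genes include genes of low counts, for which the same library is less likely to be lowest in every class. No share was taken over genes with counts like those of the members, so these values do not set the members apart. The 2 knockout libraries had opposite signs, and the part of this pattern in each genotype value was not tested.

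**Figure D5:**
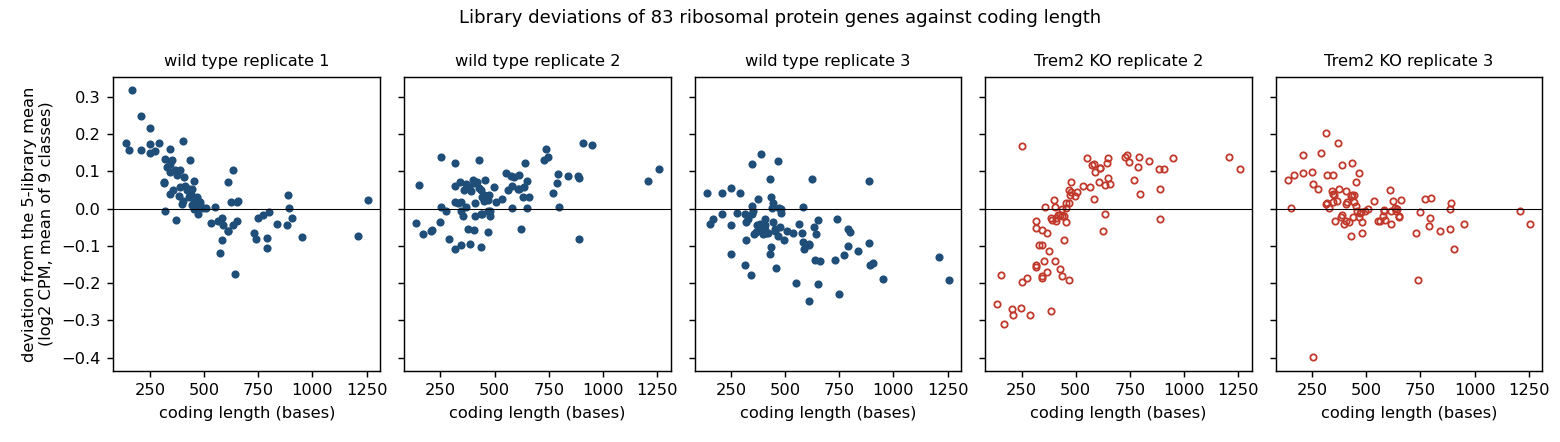
Deviation of each member from its 5-library mean (log2 CPM, mean of 9 classes, vertical axis) against its coding length in bases (horizontal axis), with 1 panel per library. Wild-type replicate 1 slopes down (rho -0.79) and knockout replicate 2 slopes up (rho 0.80).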

How the data were processed

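The deposited values are raw UMI counts of each gene in each barcode, written by Cell Ranger 6.1.1 per the file headers (6.1 with mm10 per the submitters' processing notes) from 3' end libraries. No annotation release is given in the sources used here, and ribosomal proteins have many near-identical copies, so reads may be shared. Cells with at least 500 genes, 1000 UMIs and at most 15% mitochondrial UMIs were kept, and doublets were removed with Scrublet (scanpy 1.11.5), up to the expected number in the knockout libraries, where its automatic threshold marked under 0.5%. The rule thus differed with genotype. It removed 161 of 6365, 88 of 4716 and 336 of 8510 cells in the wild-type and 364 of 5601 and 315 of 5507 in the knockout libraries. Doublets kept gave members' genotype medians of -0.08 in astrocytes and -0.07 in immature neurons.

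Cells were gated by counts of detected markers, the raw counts of a class were added up within each library, and these sums were tested with edgeR 4.0.16 (quasi-likelihood, TMM factors, its filter on low counts, Benjamini-Hochberg adjustment over all genes, threshold 0.05). Classes were compared with the library as a block, over 45 sums in 1 fit. Genotype was tested within each class, with 3 residual degrees of freedom. CPM are UMIs scaled to a total of 1000000 for the class in that library. The tests were tried on simulated data. Pups were pooled, so p-values measure the spread between libraries only.

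The members, markers, pathway lists and tests were chosen with earlier results of these data known. Named members were a set list (stalk proteins, paralogs and their partners, Rpsa, Rps6, Rps27a, Rpl5, Rpl11), up to 6 per direction and comparison with the largest change among those past the threshold with a mean of at least 20 counts and 1 sign in every library, the 4 with the smallest p for genotype, and the 5 least like the rest. Some members that this rule selects are not reported here. Up to 4 genes by smallest p were named per pathway list. Rps2, Rps15, Rpl23a, Rps21, Rpl13, Rpl36 and Rpl37 were also named where counts of few members include them, after their values were seen. Alternatives were DESeq2 1.42.0, RLE, total-UMI and member-free scaling, genes of low counts kept, male pups as a covariate, a replicate block, other limits on cells and gates, and each library left out in turn.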

Additional observations from a re-analysis of the deposited data

How the results depend on the processing

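Member counts between classes moved as follows, with the count over all tested genes in the same direction in brackets. The count of 77 members (3436 of 12913 genes) lower in maturing than immature neurons became 49 (1137 of 12490) with the relaxed gate and cells of 4000 to 12000 UMIs. The 45 (3562 of 12913) lower in immature neurons than intermediate progenitors became 7 (2609 of 11051) with a mitochondrial limit of 5% and 28 (3414 of 23272) with no filter on low counts. They were 26 to 36 (2972 to 3217) with a library left out. The 58 (2921 of 12913) higher in intermediate progenitors than radial glia became 33 (2469 of 12913) with DESeq2's kind of factors (RLE) in edgeR. The 19 (1732 of 12913) lower in dividing radial glia became 29 (1772 of 12913) with DESeq2, 41 (2131 of 12913) with factors from other genes and 11 (3169 of 14233) with gates on thinned cells. They became 10 (1742 of 23272) with no filter and 1 (1336 of 11051) with a mitochondrial limit of 5%. In cells of 4000 to 12000 UMIs the count was 1 (925 of 12237), with a median of 0.05. With that depth limit and the relaxed maturing gate it was 4 (1201 of 12490), with a median of -0.015. A library left out gave 3 to 29 (1381 to 1801). The 75 (1012 of 12913) lower in astrocytes than radial glia became 47 (779 of 12913) with factors from other genes and 31 (1885 of 14233) with thinned gates. They were 27 (915 of 23272) with no filter, 1 (302 of 11051) with a mitochondrial limit of 5% and 24 to 68 (525 to 802) with a library left out. The 72 (4847 of 12913) higher in astrocytes than maturing neurons became 10 (5243 of 13602) with the relaxed gate and 5 (4842 of 12490) with the depth limit added, with the median turned. The 67 (2663 of 12913) higher in inhibitory neurons became 37 (2738 of 14233) with thinned gates. They were 1 (2802 of 13602) with the relaxed gate and 3 (2710 of 12490) with the depth limit added, again with the median turned. With DESeq2 the median of all genes moved from -0.056 to 0.051 in maturing against immature neurons. There 77 members (2941 of 12913) were lower and 3 (3857 of 12913) higher, with a members' median of -0.74. The median of all genes moved from 0.16 to 0.046 in oligodendrocyte precursors (members 0.89) and from 0.081 to -0.019 in inhibitory neurons (members 0.28), both against maturing neurons. The cause of these moves was not tested, apart from fewer cells under the limits. Maturing neurons were not compared under a mitochondrial limit of 5% or in cells of 4000 to 12000 UMIs with the strict gate, since a library then held fewer than 20 cells.

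The ribosomal protein share moved by more than its SD in these cases. Without mitochondrial UMIs it was 13.9% in radial glia, 15.7% in intermediate progenitors, 13.9% in immature, 8.29% in maturing and 10.3% in inhibitory neurons and 16.1% in oligodendrocyte precursors. As a median over cells it was 13.5% in dividing radial glia, 9.94% in astrocytes, 14.0% in oligodendrocyte precursors and 20.9% in microglia. With a mitochondrial limit of 5% it was 11.7% in radial glia, 11.2% in dividing radial glia, 14.3% in intermediate progenitors, 14.1% in immature neurons, 9.91% in astrocytes and 13.7% in oligodendrocyte precursors. With thinned gates it was 12.1% in radial glia, 14.7% in intermediate progenitors, 12.4% in immature and 8.33% in maturing neurons. In cells of 4000 to 12000 UMIs it was 13.4% in dividing radial glia, 15.2% in intermediate progenitors, 10.4% in inhibitory and, with the relaxed gate, 12% in maturing neurons, against 10.4% with the relaxed gate alone.

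Among named members past the threshold, Rps9 and Rpl7a turned sign. Astrocytes against maturing neurons gave -0.059 for Rps9 with the relaxed gate and the depth limit together, and no other alternative run turned it. Inhibitory against maturing neurons gave, with the relaxed gate and then with the depth limit added, -0.0066 and -0.22 for Rpl7a. Named members not past the threshold changed sign more often. In maturing against immature neurons Rplp1 did so under 5 of 14 alternatives, up to 0.18 with the relaxed gate, Rps2 under 4, up to 0.11 with thinned gates, Rpl22l1 under 5, down to -0.05 without knockout replicate 3, and Rpl41 under 1, at -0.06 with the relaxed gate and depth limit. Rpl22l1 in astrocytes against radial glia did so under 6, up to 0.05 without wild-type replicate 1. For genotype, 0 members passed in each of the 9 classes under every alternative run, the replicate block included, which leaves 1 residual degree of freedom and shows little. Knockout and wild-type libraries numbered 2 deviated from their genotype means with r of 0.12 to 0.40, and those numbered 3 with 0.08 to 0.44, over classes. Each pair shares a number and, per the descriptions, the sexes of the pooled pups. Around their own mean the 2 knockout libraries deviate as exact mirror images. The 2 sets of r are therefore not separate and cannot show that each pair agrees.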

Other observations

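Rack1, a small subunit protein whose symbol does not match the rule for members, had a log2 fold change of -1.20 (SE 0.08, edgeR adjusted p = 1.1e-18) in maturing against immature neurons, or -0.45 with the relaxed maturing gate, and 1.75 (SE 0.08, edgeR adjusted p = 2.23e-25) in microglia against maturing neurons, or 1.04 with the relaxed gate. Its sign turned with the gate in astrocytes against maturing neurons, from 0.63 to -0.15, and in inhibitory neurons, from 0.52 to -0.22. Fau, which encodes the small subunit protein eS30 fused to a ubiquitin-like protein, had 2.24 (SE 0.07, edgeR adjusted p = 1.17e-32) in microglia against maturing neurons, or 1.78 with the relaxed gate.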
